A study of Homo sapiens with 12 samples.

Results

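The cluster of miR-302 and miR-367 is a group of microRNA genes that lie close together and are known to be among the most abundant microRNAs of human pluripotent cells. Its 5 gene rows, MIR302A, MIR302B, MIR302C, MIR302D and MIR367, were taken from a table of 59050 gene rows, in which 1842 rows are microRNA genes. The rows were chosen by symbol and because counts were present in both assays of the study, so detection and the level in each assay are described here and not tested. The study compared neural progenitor cells (NPC) with embryonic stem cells (ESC) of the human line HUES8, both wild type. NPC were made by 7 days of neural induction with 2.5 uM SB431542, which blocks Nodal and activin receptors, and 0.05 uM LDN193189, which blocks BMP receptors; SB431542 was left out for the last 2 days. ESC were kept in a maintenance medium for pluripotent cells with no such induction. Of each state, 3 libraries were made from total RNA depleted of rRNA and 3 from ribosome-bound RNA, which gave 12.

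A microRNA gene is transcribed as part of a long primary transcript, from which the nuclear enzyme DROSHA with DGCR8 cuts a short hairpin. DICER1 cuts the hairpin to a mature microRNA, which an Argonaute protein carries to messenger RNAs that pair with its seed, the bases near its 5′ end. In pluripotent cells the miR-302 microRNAs are known to act on cell cycle inhibitors and on Nodal pathway genes, and the transcription factors POU5F1, SOX2 and NANOG have been reported at the promoter of the cluster. The counts cannot show which of these forms (primary transcript, hairpin or mature microRNA) gave a read.

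The mature microRNAs are shown because the likeness of the 4 miR-302 members bears on how reads can be assigned to them. The 3p arms, written 5′ to 3′ with the seed (bases 2 to 8) in capitals, come from RefSeq, GRCh38.p14.
hsa-miR-302a-3p: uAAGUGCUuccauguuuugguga
hsa-miR-302b-3p: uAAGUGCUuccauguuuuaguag
hsa-miR-302c-3p: uAAGUGCUuccauguuucagugg
hsa-miR-302d-3p: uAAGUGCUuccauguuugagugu
hsa-miR-367-3p: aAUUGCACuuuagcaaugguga
The 4 miR-302 arms shared 1 seed and their first 17 bases were identical, while miR-367 had a seed of its own. Among the 5p arms of the same 4 hairpins there were 3 different seeds, as the next lines show in the same way.
hsa-miR-302a-5p: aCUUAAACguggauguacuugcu
hsa-miR-302b-5p: aCUUUAACauggaagugcuuuc
hsa-miR-302c-5p: uUUAACAUggggguaccugcug
hsa-miR-302d-5p: aCUUUAACauggaggcacuugc
hsa-miR-367-5p: aCUGUUGCuaauaugcaacucu

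The hairpins of MIR302B and MIR302A are shown because the largest change and the largest count belong to them. Capitals mark the 5p and 3p arms.
MIR302B: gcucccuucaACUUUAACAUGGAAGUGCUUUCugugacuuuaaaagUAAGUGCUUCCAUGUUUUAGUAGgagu
MIR302A: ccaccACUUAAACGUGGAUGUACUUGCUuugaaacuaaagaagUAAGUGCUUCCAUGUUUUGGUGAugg
The longest run of bases shared by these hairpins was 21, and it was 22 between MIR302C and MIR302B and 20 between MIR302A and MIR302C. A read that lies wholly within such a run matches more than 1 member, while a read that reaches beyond it may not. The sources used here do not say how reads with several matches were treated. The split of counts between MIR302A, MIR302B, MIR302C and MIR302D is therefore uncertain, and its part in the results was not tested.

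All 5 hairpins lie on the minus strand of chromosome 4 (GRCh38.p14, RefSeq) in the order MIR302B (112648485 to 112648557), MIR302C (112648363 to 112648430), MIR302A (112648183 to 112648251), MIR302D (112648004 to 112648071) and MIR367 (112647874 to 112647941), read along the transcript. They begin 1494 to 2110 bases from the 5′ end of MIR302CHG, the long noncoding host transcript (112646720 to 112650051). Host and hairpins fall within the span of LARP7 (112637143 to 112657586), a gene for an RNA-binding protein that is transcribed from the other strand. Whether counting used strand is likewise not given, so reads from the LARP7 transcript and from the cluster may not be separated.

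RNA libraries held 19529738 to 35117370 counts and ribosome-bound libraries 2422756 to 4451196, so a count of 0 still allows up to 0.154 and 1.24 CPM (counts relative to the library total). Correlations between libraries of a group were 0.996 to 0.997 for NPC RNA, 0.976 to 0.996 for ESC RNA, 0.975 to 0.979 for ribosome-bound NPC and 0.927 to 0.976 for ribosome-bound ESC. ESC RNA replicate 3 and ribosome-bound ESC replicate 2 stood apart from their groups. Of 10 ESC marker genes, 8 were lower in NPC in RNA and 9 in ribosome-bound RNA, and of 10 NPC markers 10 and 8 were higher. Over all genes tested, 26.2% were lower and 26.4% higher in RNA, and 30.3% were lower and 31.6% higher in ribosome-bound RNA. Of 6 mesoderm and endoderm markers in the table, 4 were tested in RNA and 3 were lower in NPC, and in ribosome-bound RNA 6 of 6 were lower. In RNA, 3 of 4 trophoblast and amnion markers were tested, with 1 higher and 1 lower, and in ribosome-bound RNA 2 were tested, with 1 higher and 1 lower. Nothing says that replicates were separate cultures, so p-values measure the spread between these libraries, which may be technical. All intervals given below are 95% intervals that cover counting error only.

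In total RNA MIR302B, the first hairpin of the transcript, had the largest fall of the 4 cluster rows tested. MIR302B had 3.30, 3.50 and 3.37 CPM in NPC, against 41.9, 35.7 and 34.7 CPM in ESC. The NPC libraries were nearly alike and lay far below every ESC library. In such bulk samples, fewer cells that hold a transcript and less of it per cell cannot be told apart. The log2 fold change of NPC over ESC was -3.53 ± 0.15 (SE; edgeR quasi-likelihood test, adjusted p = 1.25e-06). Leaving out 1 library at a time kept it between -3.60 and -3.47.

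MIR367, the last hairpin and the only member with another seed, had 0.345, 0.370 and 0.796 CPM in NPC RNA, against 3.69, 3.04 and 2.15 CPM in ESC RNA. No NPC library reached the lowest ESC library. Its log2 fold change was -2.60 ± 0.36 (edgeR adjusted p = 5.49e-04). MIR302C had 1.27, 0.427 and 1.07 CPM in NPC RNA, against 4.18, 3.96 and 3.17 CPM in ESC RNA. NPC replicate 2 was the lowest library and the groups did not overlap. Its log2 fold change was -2.13 ± 0.34 (edgeR adjusted p = 0.00125).

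MIR302A changed least of the tested rows in RNA, with 1.30, 1.71 and 1.13 CPM in NPC, against 2.66, 3.19 and 2.51 CPM in ESC. The groups did not overlap, and the log2 fold change was -1.08 ± 0.22 (edgeR adjusted p = 0.00424). MIR302D had 2, 0 and 0 counts in NPC RNA, against 14, 5 and 11 counts in ESC RNA, and did not pass the filter on low counts. Its summed level in NPC was 0.0468 of that in ESC, with an interval of 0.00542 to 0.184. The 4 tested rows were all called lower, beside 26.2% of the 18631 genes tested (26.4% were called higher). A row with few counts in NPC, such as MIR367 with 9, 13 and 26, passes the filter only through its ESC counts. The call of MIR367 and this count of calls are therefore a description.

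**Figure D1:**
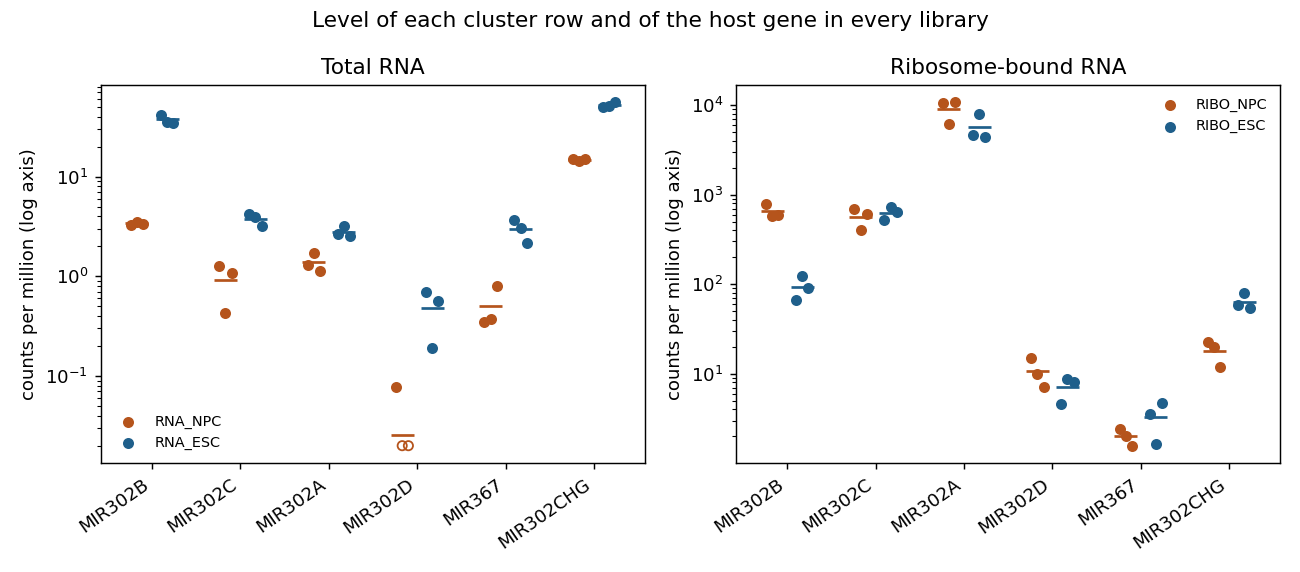
CPM (log axis) of each cluster row, in the order of the hairpins along the transcript, and of the host gene MIR302CHG; points are libraries, lines are group means, and open circles mark libraries with 0 counts drawn at the bottom. In total RNA MIR302B has 3.30 to 3.50 CPM in NPC and 34.7 to 41.9 CPM in ESC. In ribosome-bound RNA it has 580 to 784 CPM in NPC and 66.5 to 123 CPM in ESC.

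In ribosome-bound RNA none of the 4 cluster rows tested was called lower, and MIR302B was higher in NPC. It had 784, 580 and 598 CPM in NPC, against 66.5, 123 and 91.8 CPM in ESC. Every NPC library was far above every ESC library. The log2 fold change was 2.83 ± 0.29 (edgeR adjusted p = 8.38e-06) and stayed between 2.62 and 3.10 when 1 library was left out at a time. Of the 4 cluster rows tested, MIR302B alone was called higher and none lower, beside 31.6% and 30.3% of the 12250 genes tested. For the 0 called lower, no row had an unadjusted p under 0.05 in that direction, and DESeq2 and limma-voom called none.

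MIR302A held most of the cluster's ribosome-bound counts, with 10457, 6115 and 10804 CPM in NPC, against 4615, 7922 and 4381 CPM in ESC. The groups overlapped: NPC replicate 2 lay below ESC replicate 2, which was well above the other ESC libraries. The log2 fold change was 0.72 ± 0.36 and missed the threshold (edgeR adjusted p = 0.101). Without ribosome-bound ESC replicate 2, a library that stood apart, it was 1.09 with an adjusted p of 4.40e-05 by edgeR, and 2 cluster rows were then called higher.

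MIR302C had 687, 407 and 615 CPM in ribosome-bound NPC RNA, against 521, 720 and 633 CPM in ribosome-bound ESC RNA. The groups overlapped, the log2 fold change was -0.10 ± 0.26 (edgeR adjusted p = 0.761), and the sign turned without NPC replicate 2 (0.13) or ESC replicate 2 (0.04). MIR302D had 15.0, 9.97 and 7.19 CPM in ribosome-bound NPC RNA, against 4.56, 8.67 and 8.04 CPM in ribosome-bound ESC RNA. These groups overlapped too, with a log2 fold change of 0.62 ± 0.38 (edgeR adjusted p = 0.171). MIR367 had 8, 7 and 7 counts in NPC, against 11, 4 and 17 counts in ESC, and did not pass the filter. Its summed level in NPC was 0.557 of that in ESC (0.308 to 0.988), and the libraries overlapped.

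All microRNA rows together took 1.70%, 1.06% and 1.57% of the ribosome-bound counts in NPC, against 0.745%, 1.21% and 0.758% in ESC. These groups overlapped, and the cluster itself held 67.4% to 76.8% of the microRNA-row counts in NPC and 67.5% to 72.4% in ESC. The other microRNA rows alone took 0.501%, 0.345% and 0.363% in NPC, against 0.224%, 0.334% and 0.247% in ESC, which did not overlap; no test was run on these shares. With libraries scaled to the counts of the other microRNA rows, a choice made after seeing the data, the median of all genes shifted to -0.64, and 1834 genes were called higher and 4992 lower, beside 3865 and 3707 with TMM scaling. On that scale MIR302B was still called higher (log2 2.24, edgeR adjusted p = 2.84e-05). MIR302A then stood at 0.14, MIR302D at -0.02 and MIR302C at -0.73 (edgeR adjusted p = 0.680, 0.971 and 0.0490), so MIR302C was called lower relative to the other microRNA rows. The part of the other microRNA rows' share in these results was not tested.

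The changes in the assays were set against each other in a single fit over all 12 libraries, as the difference between the log2 fold change in ribosome-bound RNA and that in total RNA. For MIR302B the difference was 6.30 ± 0.33 (edgeR adjusted p = 2.65e-08), the smallest p of the 11866 genes tested. It was 1.96 ± 0.42 for MIR302C (edgeR adjusted p = 0.00182) and 1.73 ± 0.44 for MIR302A (edgeR adjusted p = 0.00527). The 3 rows tested were called higher and none lower, beside 22.6% and 19.7% of genes, and none had a p under 0.05 in the lower direction; DESeq2 and limma-voom also called none lower. MIR302D and MIR367 were not tested here.

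**Figure D2:**
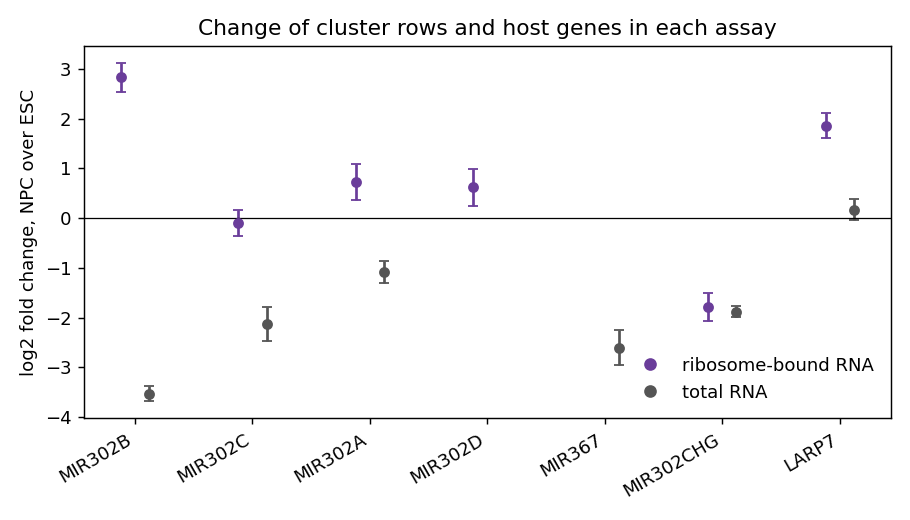
Log2 fold change of NPC over ESC with its standard error for cluster rows, the host transcript and LARP7, in ribosome-bound and in total RNA; rows without a point did not pass the filter in that assay. MIR302B stands at 2.83 in ribosome-bound RNA and at -3.53 in total RNA, while MIR302CHG is at -1.79 and -1.88.

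The host transcript was lower in NPC in both assays. MIR302CHG had 15.0, 14.2 and 15.2 CPM in NPC RNA, against 49.7, 50.7 and 55.9 CPM in ESC RNA, and 22.9, 19.6 and 11.9 CPM in ribosome-bound NPC RNA, against 58.3, 79.2 and 54.1 CPM in ribosome-bound ESC RNA. In neither assay did the groups overlap. Its log2 fold change was -1.88 ± 0.11 in RNA and -1.79 ± 0.28 in ribosome-bound RNA (edgeR adjusted p = 5.71e-06 and 1.91e-04), and the difference between assays was 0.02 ± 0.31 (edgeR adjusted p = 0.960), with a sign that turned under other scalings.

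LARP7, whose span holds the cluster on the other strand, averaged 24.9 ± 2.60 CPM in NPC RNA and 21.2 ± 6.68 CPM in ESC RNA (SD, n = 3 each). The RNA libraries overlapped and the log2 fold change of 0.17 missed the threshold (edgeR adjusted p = 0.511). It was 0.43 with an edgeR adjusted p of 8.00e-05 without ESC RNA replicate 3, and -0.0065 without ESC RNA replicate 1. Such runs changed the calls of many genes: leaving out 1 RNA library at a time, 3804 to 6757 of all genes were called higher and 4030 to 6710 lower. In ribosome-bound RNA LARP7 averaged 105 ± 7.87 CPM in NPC and 29.6 ± 11.1 CPM in ESC. The groups did not overlap, and the log2 fold change was 1.86 ± 0.25 (edgeR adjusted p = 6.41e-05). The part of LARP7 reads in the counts of the hairpins was not tested.

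MIR302B held most of the cluster's counts in total RNA and MIR302A in ribosome-bound RNA, in both cell states. Of the counts on the 5 rows in total RNA, MIR302B held 54.5% ± 3.26 in NPC and 79.0% ± 1.52 in ESC (SD, n = 3 each). MIR302A held 22.3% ± 5.50 in NPC RNA and 5.92% ± 0.967 in ESC RNA. In ribosome-bound RNA MIR302A held 87.8% ± 1.95 in NPC and 88.1% ± 2.37 in ESC. There MIR302B held 6.56% ± 1.59 in NPC and 1.49% ± 0.271 in ESC, and MIR302C 5.53% ± 0.356 in NPC and 10.2% ± 2.09 in ESC. MIR302D and MIR367 held small shares of the ribosome-bound counts, with means of 0.108% and 0.0205% in NPC and 0.114% and 0.0599% in ESC.

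**Figure D3:**
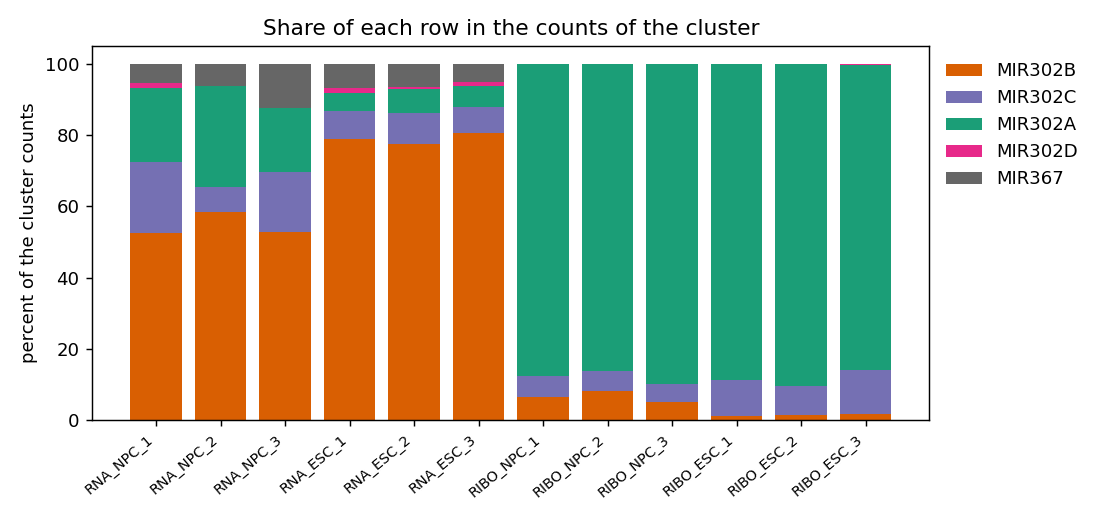
Percent of the cluster counts that each row holds in each of the 12 libraries, stacked. MIR302B holds 52.4% to 58.3% in NPC RNA and 77.5% to 80.5% in ESC RNA, and MIR302A holds 86.0% to 89.8% in ribosome-bound NPC and 85.6% to 90.3% in ribosome-bound ESC.

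As a ratio of mean ribosome-bound CPM to mean RNA CPM, MIR302A reached 6605 in NPC and 2025 in ESC. The ratio was 618 and 166 for MIR302C, and 193 and 2.50 for MIR302B, in NPC and in ESC. MIR302D had 419 in NPC, from 2 RNA counts, and 14.7 in ESC. MIR367 had the lowest ratio of the members, 3.98 in NPC and 1.12 in ESC, and MIR302CHG had 1.23 in both states. CPM is relative to the total of a library, so these ratios are not numbers of molecules.

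Summed over the 5 rows, the cluster had 6.29, 6.01 and 6.36 CPM in NPC RNA, against 53.1, 46.0 and 43.1 CPM in ESC RNA. The pooled NPC level was 0.131 of that in ESC (0.120 to 0.143). The sum in ribosome-bound RNA was 11945, 7114 and 12026 CPM in NPC, against 5210, 8776 and 5118 CPM in ESC, and these groups overlapped. The cluster made up 5.49% ± 0.224 of the microRNA-row counts in NPC RNA and 33.6% ± 2.60 in ESC RNA (SD, n = 3 each). In ribosome-bound RNA it made up 71.5% ± 4.83 in NPC and 70.0% ± 2.46 in ESC.

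Per kilobase of hairpin, a scale on which rows of different length can be set side by side, MIR302B was at 46.4 CPM in NPC RNA and 512 CPM in ESC RNA. In ESC RNA it was the highest of 1497 microRNA rows with a RefSeq length, followed by MIR3153 (60.3), MIR302C (55.5), MIR367 (43.5) and MIR302A (40.4). Neighbours in the order MIR302C, MIR367 and MIR302A overlapped between libraries. In NPC RNA MIR302B ranked 2, MIR302A 6, MIR302C 14, MIR367 30 and MIR302D 339. MIR302A led the ribosome-bound libraries, with 132252 CPM per kilobase in NPC and 81730 in ESC, and by CPM alone, without length, it ranked 7 in NPC and 6 in ESC among all 59050 rows. Among the rows with a RefSeq length, the next in ribosome-bound ESC RNA were MIR302C (9186), MIR1246 (4334), MIR99A (1822) and MIR302B (1282). By CPM alone MIR302C ranked 3 and MIR302B 7 there among all 1842 microRNA rows. MIR183, named after its values were seen, had 1022 CPM there, above MIR302C, and is not among the rows ranked by length.

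**Figure D4:**
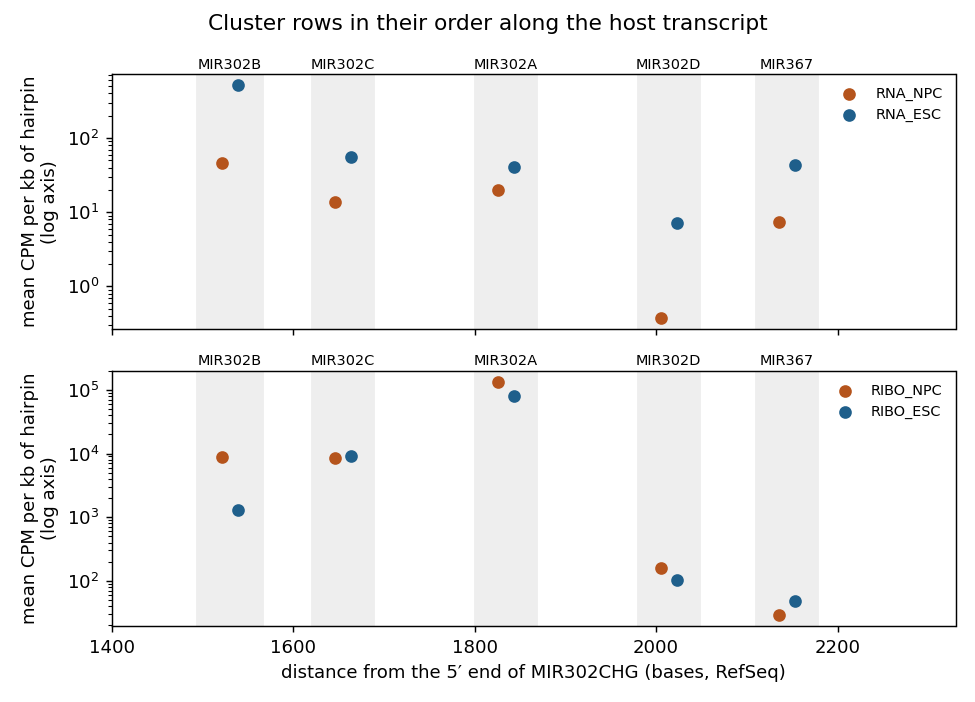
Mean CPM per kilobase of hairpin (log axis) against the distance from the farther RefSeq start of MIR302CHG. Grey bands are the hairpins and points are group means. In total RNA the highest level is at MIR302B, with 46.4 in NPC and 512 in ESC, and in ribosome-bound RNA at MIR302A, with 132252 in NPC and 81730 in ESC.

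The other 1837 microRNA rows give the setting. In RNA 64 of them were tested, with 12 called higher and 8 lower in NPC, beside 26.4% and 26.2% of all genes tested. Their median log2 fold change was 0.14, beside 0.03 over all genes tested. Without ESC RNA replicate 3, 22 of them were called higher. Leaving out 1 RNA library at a time, 3804 to 6757 of all genes were called higher, beside 4913 with all libraries. MIR302B, MIR367 and MIR302C had the lowest log2 fold changes of the 68 microRNA rows tested. In ribosome-bound RNA 59 of the other rows were tested, with 33 called higher and 3 lower, beside 31.6% and 30.3% of all genes tested. Their median was 0.90, beside -0.01 over all genes. Without NPC replicate 1, 5 were lower, and on the scale of the other microRNA rows 17 were higher and 6 lower. MIR302B ranked 5 of 63 by log2 fold change there, MIR302A 36, MIR302D 40 and MIR302C 55. MIR302B and MIR205 were the 2 microRNA rows, of 12 tested in both assays, that were called lower in RNA and higher in ribosome-bound RNA, beside 3.29% of the 11866 genes tested in both; MIR205 was named after its values were seen.

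**Figure D5:**
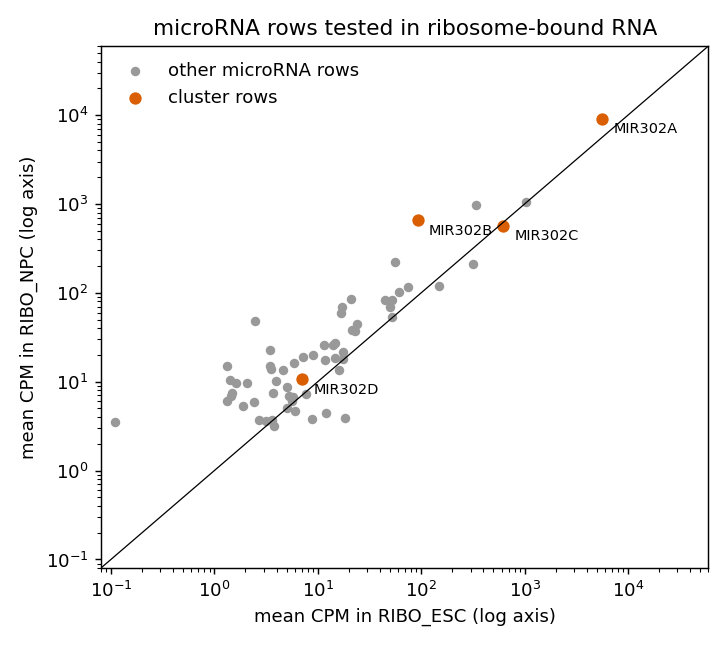
Mean CPM in ribosome-bound NPC against ribosome-bound ESC libraries (log axes) for the 63 microRNA rows tested; the line marks equal levels. MIR302B, at 654 CPM in NPC and 93.6 CPM in ESC, lies above the line, and MIR302C, at 569 CPM in NPC and 625 CPM in ESC, lies near it.

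Other microRNA genes of pluripotent cells with the same or a like seed had at most 9 counts summed over a group. MIR302E, MIR302F, MIR371B and MIR372 had 0 counts in all libraries. MIR17 and MIR20A also had 0, though their host MIR17HG averaged 30.8 CPM in NPC RNA and 48.5 CPM in ESC RNA. A row with 0 counts is therefore not shown to be silent. MIR371A had 1 count in all, in ESC RNA, and MIR373 had 2 ribosome-bound counts in NPC and 9 in ESC. Among rows with the miR-302 seed, AAGUGCU, MIR520E had 0 counts in NPC RNA and 16 in ESC RNA. Of the rows with the miR-367 seed, AUUGCAC, MIR25 had 27.3 ± 2.15 CPM in ribosome-bound NPC and 14.6 ± 4.78 CPM in ribosome-bound ESC (SD, n = 3 each; log2 0.95, edgeR adjusted p = 0.00982), a call that was lost on the scale of the other microRNA rows. MIR520E was named after its values were seen.

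Of the factors reported at the cluster promoter, POU5F1 and NANOG were lower in NPC and SOX2 was not called. POU5F1 averaged 22.1 CPM in NPC RNA and 915 CPM in ESC RNA (log2 -5.45, edgeR adjusted p = 4.30e-06). NANOG averaged 1.26 CPM in NPC RNA and 423 CPM in ESC RNA (log2 -8.45, edgeR adjusted p = 4.56e-08). SOX2 averaged 118 CPM in NPC RNA and 105 CPM in ESC RNA (log2 0.10, edgeR adjusted p = 0.476). In ribosome-bound RNA POU5F1 had 10 counts in NPC and 688 in ESC, NANOG 1 and 225, and SOX2 a log2 fold change of 0.15 (edgeR adjusted p = 0.481).

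Of the 2 RefSeq starts of MIR302CHG, the promoter of the one farther from the hairpins is shown because it holds the octamer ATGCAAAT, a motif that POU factors bind, given in capitals. It was chosen after the search, and the tables do not say which start the reported binding concerns (RefSeq, GRCh38.p14, chr4:112650002-112650301, minus strand, 250 bases before to 50 after the start).
MIR302CHG promoter: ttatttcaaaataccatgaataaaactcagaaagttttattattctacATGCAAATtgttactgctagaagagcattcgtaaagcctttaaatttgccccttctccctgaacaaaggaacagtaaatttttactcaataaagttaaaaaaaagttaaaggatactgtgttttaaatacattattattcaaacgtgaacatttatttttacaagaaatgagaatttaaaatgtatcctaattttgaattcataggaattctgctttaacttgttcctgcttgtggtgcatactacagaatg
It holds 1 octamer, beginning 202 bases before the start, and 1 match to AACAAAG, a motif bound by SOX factors, 141 bases before the start. Searched on both strands, ATGCAAAT occurs in 1.77% and AACAAAG in 5.20% of 35116 promoters of this length. The window of the other start had neither. A match is only a description of the letters.

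Of 7 genes that make microRNAs, 1 was higher in NPC RNA and 3 lower (median -0.10), beside 26.4% and 26.2% of all genes tested. PRKRA, a partner of DICER1, was at 0.46 (edgeR adjusted p = 0.00920), a call lost without ESC RNA replicate 1 (0.40, edgeR adjusted p = 0.0663) or 2 (0.37, 0.0522); without replicate 3, 2 of the 7 were called higher. RAN, the GTPase of hairpin export, was at -0.81 and DROSHA at -0.69 (edgeR adjusted p = 2.42e-04 and 9.72e-04). In ribosome-bound RNA 3 of 7 were higher and 3 lower (median -0.25), beside 31.6% and 30.3% of all genes. DGCR8 was at 1.89 and DROSHA at 1.63, while TARBP2, another DICER1 partner, was at -2.18 and RAN at -1.41 (edgeR adjusted p = 1.17e-05, 5.49e-05, 6.29e-06 and 1.30e-04).

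The Argonaute and TNRC6 genes of the silencing complex were mostly higher in ribosome-bound NPC RNA. There 6 of 7 were higher and none lower (median 1.17), beside 31.6% and 30.3% of all genes, with TNRC6B at 2.26 and TNRC6A at 1.98 (edgeR adjusted p = 1.41e-04 and 3.65e-05); 3 were higher on the scale of the other microRNA rows. No member had an unadjusted p under 0.05 in the lower direction, and DESeq2 and limma-voom called none lower. In RNA 3 of 7 were higher and 2 lower (median -0.20), beside 26.4% and 26.2% of all genes. AGO4 was at 1.01 and TNRC6B at 0.72, and AGO1 was at -1.52 and AGO2 at -0.52 (edgeR adjusted p = 3.56e-04, 0.00253, 1.34e-05 and 0.00107).

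Of 22 genes reported as miR-302 targets, 10 were higher and 5 lower in NPC RNA (median 0.24), beside the 26.4% and 26.2% of all genes. NR2F2, a nuclear receptor, averaged 16.6 CPM in NPC RNA and 0.236 CPM in ESC RNA (log2 6.08 ± 0.25, edgeR adjusted p = 1.20e-06). BTG2, an inhibitor of proliferation, averaged 88.4 CPM in NPC RNA and 8.13 CPM in ESC RNA (log2 3.37 ± 0.13, edgeR adjusted p = 9.68e-07). LEFTY1 and LEFTY2, secreted inhibitors of Nodal, were lower, with 2 RNA counts each in NPC and 299 and 121 in ESC. The NPC level was 0.00469 of that in ESC for LEFTY1 (0.000566 to 0.0171) and 0.0116 for LEFTY2 (0.00139 to 0.0428); SB431542, used to make NPC, acts on the receptors of this pathway, and its part cannot be told apart. In ribosome-bound RNA 10 of 21 tested targets were higher and 2 lower (median 0.45), beside 31.6% and 30.3% of all genes. NR2F2 stood at 4.77 and BTG2 at 3.76 (edgeR adjusted p = 1.03e-05 and 2.65e-06), and LEFTY1 and LEFTY2 had 1 and 4 counts in NPC and 135 and 230 counts in ESC. In ESC NR2F2 had 15 RNA counts and 5 ribosome-bound counts, and BTG2 had 19 ribosome-bound counts. There NR2F2 and BTG2 passed the filter only through NPC, and LEFTY1 and LEFTY2 passed it only through ESC in both assays. Such calls are a description. CDKN1A, a cell cycle inhibitor named here after its values were seen, averaged 97.0 ± 6.94 CPM in NPC RNA and 24.1 ± 4.93 CPM in ESC RNA (SD, n = 3 each).

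Of 18 rows for microRNA genes of the neural lineage and their hosts, 4 were tested in RNA. There 1 was called higher and 2 lower, beside 26.4% and 26.2% of all genes. In ribosome-bound RNA 5 were tested, with 1 higher and 1 lower, beside 31.6% and 30.3% of all genes. Rows with few counts in 1 state pass the filter only through the other, so these counts are a description. MIR99A averaged 119 CPM in ribosome-bound NPC and 148 CPM in ribosome-bound ESC, and MIR100 53.5 and 52.2 CPM; neither was called (log2 -0.28 and 0.07, edgeR adjusted p = 0.254 and 0.790). MIR124-2HG, host of MIR124-2, was not called in either assay, with 21.3 CPM in NPC RNA and 21.1 CPM in ESC RNA; these 3 were named after their values were seen. MIR100HG, host of MIR100, was higher in NPC RNA (log2 2.37, edgeR adjusted p = 1.45e-04). Of the hosts of MIR9 genes, LINC00461 had 1 RNA count in NPC and 57 in ESC. It passed the filter only through its ESC counts, so its lower call is a description. C1orf61 had 42 RNA counts in NPC and 477 in ESC and was called lower (edgeR adjusted p = 1.79e-05). MIR124-2 was higher in ribosome-bound RNA, with 10.4 ± 2.87 CPM in NPC and 1.43 ± 1.70 CPM in ESC (SD, n = 3 each; log2 3.05, edgeR adjusted p = 0.00193). That value was 4.47 without ribosome-bound ESC replicate 2 and 2.33 without ESC replicate 3, and the call was kept. C1orf61 was lower in ribosome-bound RNA, with 1 count in NPC and 43 in ESC. MIR124-2, with 116 ribosome-bound counts in NPC and 11 in ESC, passed the filter only through NPC, and C1orf61 there only through ESC. Both ribosome-bound calls are therefore a description. In the growth-promoting miR-17/92 family with its paralogs, MIR17HG was the 1 of 2 tested rows called lower in RNA (log2 -0.72, edgeR adjusted p = 0.00105), beside 26.2% of all genes. The other, MIR25, was at -1.20 (edgeR adjusted p = 0.0635) and was called lower too without ESC RNA replicate 3 (-1.60, edgeR adjusted p = 8.35e-05), in DESeq2, without the low-count filter and on the scale of the other microRNA rows. Of its 16 rows, 4 were tested in ribosome-bound RNA and all were called higher, beside 31.6% of all genes. Besides MIR17HG these were the paralogs MIR106B, MIR93 and MIR25, while MIR17, MIR18A, MIR20A and MIR92A1 had 0 counts in all libraries. MIR17HG was at 1.87 and MIR25 at 0.95 (edgeR adjusted p = 0.0112 and 0.00982). On the scale of the other microRNA rows 0 of these rows were called higher. Without ribosome-bound ESC replicate 3, MIR17HG was at 2.91. It had 48 ribosome-bound counts in NPC and 11 in ESC and passed the filter there only through NPC, so its higher call is a description.

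Over all 12 libraries the genes whose levels ran most like the summed cluster were GPATCH4 (Pearson r = 0.995), LYAR (0.995), SEM1 (0.991), C9orf78 (0.987) and LEO1 (0.987), on log2(CPM + 0.5) among 11863 genes. The libraries fall into assays, which the r reflects. GPATCH4, the closest, averaged 127 CPM in ribosome-bound NPC and 105 CPM in ribosome-bound ESC, and 7.22 CPM in NPC RNA and 19.7 CPM in ESC RNA.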

How the data were processed

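The authors deposited raw counts per gene, in 1 table with a column for each of the 12 libraries. Tools listed in the submitters' processing notes are featureCounts 1.6.4, STAR 2.7.1a, Bowtie 1.2 and cutadapt 1.18, with builds GRCh38 and hg38; their use, the fragment size and the way ribosomes were isolated were not given in these sources. Fold changes of NPC over ESC were fitted across all genes with edgeR 4.0.16 (R 4.3.3), by the quasi-likelihood test after TMM scaling and filterByExpr. The p-values were adjusted by Benjamini-Hochberg over all genes tested, and genes were called under 0.05. Each assay had its own fit, and the difference between assays was fitted as an interaction on genes that passed both filters. The fits were also run on simulated counts with the same dispersion for every gene, which does not stand for the spread of these libraries. Members with under 10 summed counts in a group got no difference, except in counts of calls under the alternatives. DESeq2 1.42.0 and limma 3.58.1 were alternatives. CPM used total counts. Ratios have exact binomial intervals, and a count of 0 was read as up to 3 counts. Sequences came from RefSeq tables (GRCh38.p14) for all 5 members. The members and lists were chosen with earlier results of these data known, and the seed lists after their values were seen. Genes named were the members, 3 short lists in full, and from each other list the 2 largest rises and falls past the threshold, the 5 microRNA rows highest per hairpin length in ESC, and the 5 genes most like the summed cluster. Deviations of same-numbered RNA libraries from their group means correlated (r = 0.185, 0.143 and 0.382). Those of NPC 1 with ESC 2 and of NPC 2 with ESC 1 did so too (r = 0.217 and 0.122). Pairing by number is therefore not shown by these values. The main fits used no pairing, and a replicate block is an alternative.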

Additional observations from a re-analysis of the deposited data

Results flagged for a closer look

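Under the test of the difference itself, 3 members changed differently in the assays. The log2 fold change of NPC over ESC in ribosome-bound RNA exceeded that in total RNA by 6.3 for MIR302B, by 1.96 for MIR302C and by 1.73 for MIR302A, with edgeR adjusted p of 2.65e-08, 0.00182 and 0.00527.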

How the results depend on the processing

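The 4 falls in RNA, the rise of MIR302B in ribosome-bound RNA and the 3 differences between assays kept their direction and call under each alternative run. With the replicate block MIR302B was at -3.52 in RNA, 2.86 in ribosome-bound RNA and 6.30 in the difference, and the block changed no call of a member; ribosome-bound libraries of the same number did not deviate together (r = -0.179, -0.255 and -0.00762). Without the low-count filter MIR302A was called higher in ribosome-bound RNA (0.72, edgeR adjusted p = 0.0212), which made 2 members, and 5 members were called in the difference, among them MIR302D with 2 summed counts in NPC RNA. Leaving out 1 library gave 0.54 to 1.09 for MIR302A and -0.27 to 0.13 for MIR302C in ribosome-bound RNA, and 1 to 2 members called higher. Scaled to the other microRNA rows, MIR302C was at -0.73, which made 1 member called lower, and MIR302D turned to -0.019, SOX2 to -0.029 in RNA and -0.48 in ribosome-bound RNA. The summed cluster in RNA without MIR302B was at -1.82. Leaving out 1 library, LARP7 in RNA ran from -0.0065 to 0.43, TARBP2 in RNA from -0.17 to 0.45, and the difference for MIR302CHG from -0.20 to 0.28. That difference was -0.037 with DESeq2 size factors, -0.036 in DESeq2, -0.011 without TMM, -0.0069 in limma-voom and -0.40 on the other-microRNA scale. The cause of these changes was not tested. At this depth MIR302D in RNA and MIR367 in ribosome-bound RNA rest on counting intervals alone.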
